A study of Mus musculus with 54 samples.

Results

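MicroRNA levels were compared between liver and epididymal white adipose tissue (eWAT), the visceral fat pad beside the testis, in male mice kept on a high-fat diet. The comparison took all 6 eWAT and all 6 liver libraries of that diet, joined by miRNA name, and kept every miRNA that passed a filter on low counts: 595 of the 1966 named. It then asked which tissue differences appeared, widened or shrank against the same comparison on low fat. The series holds 54 small RNA libraries of liver, eWAT and sperm, of which the 36 of liver and eWAT were used. All mice were C57BL/6 males of the F0 generation, on chow until 6 weeks of age and 24 weeks old at collection. The low-fat group (LF) then ate low fat for 18 weeks, the high-fat group (HF) ate high fat for 18 weeks, and the return group (HFLF) ate high fat for 9 weeks and low fat for 9 weeks. Each diet had 6 libraries of each tissue, and the labels name no transgene or drug for any group.

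MicroRNAs are short RNAs cut from a hairpin whose arms, named 5p and 3p, can each give a mature strand. The loaded strand guides Argonaute to messenger RNAs that pair with its seed, bases 2 to 8, and lowers their stability and translation. Hepatocytes are dominated by a single miRNA, miR-122, whereas adipose tissue mixes adipocytes with vessels, fibroblasts and immune cells, whose numbers shift in obesity.

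let-7e and let-7g share a seed but changed in opposite directions between diets, as did miR-99a and miR-99b. Members of the miR-221/222, miR-29 and miR-192/215 sets share a seed and changed in the same direction. The results return to these miRNAs and to miR-342-3p. Their mature sequences follow, from RefSeq on build GRCm38.p6, written 5′ to 3′ with the seed, bases 2 to 8, in capitals. They were chosen for display after their values were seen. The let-7, miR-99, miR-221/222, miR-29 and miR-192/215 sets let the shared seed be read against the differing 3′ part, and miR-342-3p had the largest rise among abundant leukocyte miRNAs.
let-7e-5p: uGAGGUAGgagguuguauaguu
let-7g-5p: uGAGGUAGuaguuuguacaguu
miR-342-3p: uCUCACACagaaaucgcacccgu
miR-221-3p: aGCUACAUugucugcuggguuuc
miR-222-3p: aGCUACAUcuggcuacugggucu
miR-29a-3p: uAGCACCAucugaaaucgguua
miR-29b-3p: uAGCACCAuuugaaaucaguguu
miR-29c-3p: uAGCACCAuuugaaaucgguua
miR-99a-5p: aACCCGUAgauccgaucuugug
miR-99b-5p: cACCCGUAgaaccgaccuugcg
miR-192-5p: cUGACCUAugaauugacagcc
miR-215-5p: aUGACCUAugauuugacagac

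On GRCm38.p6 the let-7e hairpin lies at chr17:17830352-17830444 on the plus strand, in an intron of Spaca6, and that of let-7g at chr9:106178840-106178927, in an intron of Wdr82. The miR-342 hairpin lies at chr12:108658620-108658718 on the plus strand, in an intron of Evl. The miR-221 and miR-222 hairpins are neighbours on the minus strand of the X chromosome, at chrX:19146294-19146388 and chrX:19146893-19146971, with no annotated gene on their strand. The miR-99a hairpin, at chr16:77598936-77599000, lies in an intron of the non-coding gene Mir99ahg.

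Depth was 7017730 to 14394584 counts per library, and the 595 tested miRNAs held at least 99.98% of the counts of every HF library. Levels are CPM, counts relative to library size, scaled by TMM, which sets libraries on the bulk of miRNAs rather than on the total. The scaling factors were below 1 in all liver libraries and above 1 in all eWAT libraries, so the scaled CPM of a library do not sum to their nominal total. Of the named miRNAs, 999 had a count in a liver HF library, 1221 in an eWAT HF library and 908 in both. The first liver HF library stood apart from the other 5 in its scaling factor, 0.95 against 0.57 to 0.75. For 6 named miRNAs it lay far from the other 5 libraries, and their called changes were kept without it. It also held the highest liver HF levels of miR-205-5p (79.4 CPM, median 5.52) and miR-582-3p (41.1 CPM, median 8.53). Without it their HF differences moved from -2.98 to -1.69 and from -1.86 to -1.05 and were no longer called (adjusted p = 0.0803 and 0.0786). Over all miRNAs without it, 227 were called higher in eWAT HF and 188 in liver HF, and 65 changes toward eWAT and 95 toward liver were called.

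The tissues differed on high fat in a few very abundant miRNAs. miR-122-5p, the hepatocyte miRNA that acts in cholesterol and lipid metabolism, took 42.1% ± 2.70 (SD, n = 6) of liver HF counts, whereas the top miRNA of eWAT HF took 12.5% ± 0.278. The effective number of miRNAs, which is the exponential of the Shannon entropy of a library's counts, was 31.6 ± 1.33 in eWAT HF and 13.7 ± 1.20 in liver HF. This difference gave an exact 2-sided permutation p of 0.00216, the smallest that 6 against 6 libraries allow, and an adjusted p of 0.00649 over 6 tests. The effective number was also higher on HF than on LF within liver (11.4 ± 1.27 on LF, adjusted exact permutation p = 0.0195) and within eWAT (28.3 ± 3.50 on LF, adjusted exact permutation p = 0.0494). The liver difference was no longer called when miR-122-5p was left out of the entropy (adjusted exact permutation p = 0.206), and the eWAT difference was no longer called when eWAT LF 1, 2, 3 or 6 or any of eWAT HF 1 to 5 was left out.

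On high fat, 246 miRNAs (41.3% of those tested) were higher in eWAT and 186 (31.3%) were higher in liver, together 72.6%, at an adjusted p below 0.05 in edgeR's quasi-likelihood test. At least a 2-fold difference was seen for 210 and 137 of these, at least 10-fold for 96 and 36, and at least 100-fold for 17 each way. The libraries of the tissues did not overlap for 278 miRNAs (46.7%). With library totals in place of TMM, the counts were 417 and 70, and the median difference over all tested miRNAs moved from 0.37 to 1.75 on the log2 scale. On low fat, 221 (37.1%) and 167 (28.1%) were called on the TMM scale. These are bulk tissues, so a lower level from fewer cells of a type and one from less RNA per cell cannot be told apart.

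The liver end was led by miRNAs of hepatocytes. miR-802-5p, which is raised in the liver of obese mice, ranged from 164 to 444 CPM in liver HF (median 265) and from 0 to 0.196 in eWAT HF (median 0.0359). The groups did not overlap, and the fitted difference was -11.91 ± 0.88 (log2, SE). miR-192-5p, abundant in liver, gut and kidney, had 18990, 29440 and 31760 CPM as lowest, median and highest in liver HF against 47.1, 56.0 and 78.0 in eWAT HF. miR-194-5p, from the same precursor transcripts, differed by -8.04 ± 0.50. miR-122-5p differed by -10.33 ± 0.97, with 398500 to 801400 CPM in liver HF and 46.4 to 1388 in eWAT HF. The levels of this hepatocyte marker spread more widely among eWAT libraries than among liver libraries. miR-1948-3p (-7.77 ± 0.37), miR-31-5p (-8.00 ± 0.48) and miR-182-5p (-4.80 ± 0.59) were also among the 10 of largest difference toward liver with at least 100 CPM in liver.

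The eWAT end was led by miR-708-5p, miR-708-3p and miR-504-5p, which were almost absent from liver. Others named here were present there, such as miR-146b-5p at 105 to 155 CPM in liver HF. miR-708-5p had 112 to 343 CPM in eWAT HF (median 207) and a single count in all liver HF libraries together, a ratio of 8251 with a 95% counting interval of 1481 to 325900. Its partner arm miR-708-3p had 2 counts in liver HF, a ratio of 3845 (1064 to 31750). miR-10b-5p, encoded in the Hoxd cluster, had a median of 10300 CPM in eWAT HF and 29.3 in liver HF, a difference of 8.68 ± 0.47. miR-504-5p differed by 9.26 ± 0.89, with 78.1 to 126 CPM in eWAT HF and at most 0.464 in liver HF. miR-127-3p (4.49 ± 0.45), miR-434-3p (4.24 ± 0.37) and miR-411-5p (3.67 ± 0.47) belong to the Dlk1-Dio3 cluster of imprinted genes. All 46 tested members of that cluster were higher in eWAT HF, with a median of 4.05, against 41.3% of all tested miRNAs. Their summed level had medians of 92.1 CPM in liver HF and 1532 in eWAT HF. Members almost absent from liver could pass the low-count filter through eWAT alone, so the filter partly sets this count. miR-335-3p, from an intron of Mest, a gene that rises in expanding fat, and miR-146b-5p, a brake on NF-kB signalling, were also among the 10 of largest difference with at least 100 CPM in eWAT (3.78 ± 0.33 and 3.71 ± 0.21).

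Some of the most abundant miRNAs were shared by the tissues. let-7f-5p, let-7a-5p and let-7c-5p were among the 5 most abundant in each. miR-122-5p and miR-21a-5p were among the 5 in liver alone, and miR-26a-5p and miR-143-3p in eWAT alone. let-7f-5p differed by -1.08 ± 0.09 and let-7a-5p by -0.85 ± 0.10 on the TMM scale, and by 0.31 and 0.54 with library totals, where their direction turned toward eWAT. let-7c-5p (-0.21 ± 0.11, adjusted p = 0.0834) and miR-26a-5p (-0.04 ± 0.12, adjusted p = 0.767) were not called. miR-21a-5p, which rises in many injured or dividing tissues, had medians of 70740 CPM in liver HF and 35560 in eWAT HF (-0.93 ± 0.17, and 0.52 with library totals).

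**Figure D1:**
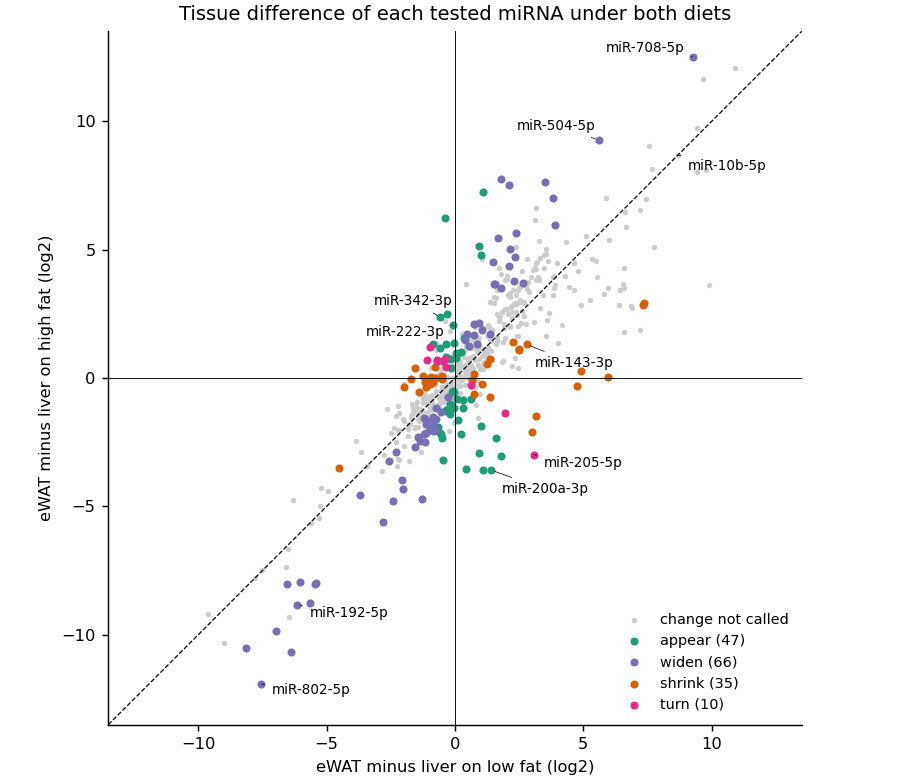
Each point is 1 of the 595 tested miRNAs: the eWAT minus liver difference on low fat (horizontal, log2) against that on high fat (vertical, log2), with the line of equal differences dashed. Coloured points are the miRNAs whose difference changed, by class, with 47 that appeared, 66 that widened, 35 that shrank and 10 that turned.

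The tissue difference changed from low fat to high fat for 159 miRNAs (26.7%) at an adjusted p below 0.05 for the difference of differences in edgeR. Of these, 70 (11.8%) moved toward eWAT and 89 (15.0%) toward liver, and the median change over all tested miRNAs was -0.06. With library totals the counts were 88 and 60, with a median change of 0.13. All 70 that moved toward eWAT and 60 of the 89 that moved toward liver were called there too. Of the 159, 32 had a mean under 10 CPM in all 4 groups.

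By their calls within each diet, 47 differences appeared, meaning that they were called on HF alone, 66 widened, 35 shrank and 10 turned from one direction to the other. A further 1 met none of these rules. The classes depend on where the scale puts a zero difference: with library totals the median difference moved by more than 1 log2 unit, and 6 differences turned. A difference called on HF and not on LF was frequent, with 101 such miRNAs, but the change itself was called for 47 of them. Likewise 57 were called on LF alone and the change was called for 25. The median size of the difference, whatever its direction, was 1.52 on HF and 1.22 on LF.

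For most of these the diet difference was called in eWAT. The HF against LF comparison was called in eWAT alone for 112 of the 159, in liver alone for 14, in both tissues for 3 and in neither for 30. Over all tested miRNAs, 76 (12.8%) were higher and 100 (16.8%) lower on HF in eWAT, together 29.6%, against 9 (1.51%) and 9 (1.51%) in liver, together 3.03%. Rises and falls within a tissue are given on the TMM scale alone. The eWAT scaling factors were 1.21 to 1.59 on LF and 1.65 to 2.15 on HF, without overlap. For the same share of counts, a scaled eWAT level is therefore lower on HF.

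miR-342-3p, abundant in lymphocytes and macrophages, had the largest rise in eWAT among miRNAs that appeared there. It had 51.5, 65.3 and 75.8 CPM as lowest, median and highest in eWAT LF and 148, 461 and 1187 in eWAT HF. Liver held 67.6 to 119 CPM on LF and 84.0 to 130 on HF. All 6 eWAT HF libraries lay above every other library of these 4 groups, and they spread more widely among themselves than any other group. The difference was -0.57 ± 0.30 on LF and 2.36 ± 0.31 on HF, a change of 2.93 ± 0.43 (adjusted p = 5.85e-05). Its partner arm miR-342-5p changed by 2.83 ± 0.60 (adjusted p = 0.00105).

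The miR-221 and miR-222 pair, which target the cell-cycle inhibitor Cdkn1b, also moved toward eWAT. miR-222-3p had 236 to 398 CPM in eWAT LF (median 277) and 507 to 2968 in eWAT HF (median 1188). Liver had medians of 305 on LF and 338 on HF. eWAT HF lay above the other groups without overlap, and the difference went from -0.08 ± 0.28 to 2.05 ± 0.29 (change 2.12 ± 0.39, adjusted p = 0.000554). miR-221-3p had medians of 577 CPM in eWAT LF and 2228 in eWAT HF, where the lowest library (951) lay among the liver values. It was higher in liver on LF (-0.96 ± 0.26) and in eWAT on HF (1.20 ± 0.26), a change of 2.16 ± 0.37 (adjusted p = 0.000314). All 4 mature strands of the pair changed toward eWAT, against 11.8% of all tested miRNAs. Their median change was 1.97, against -0.06 over all tested miRNAs.

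Other miRNAs of leukocytes rose on the eWAT side. miR-223-3p, a myeloid miRNA, had 203 to 285 CPM in eWAT LF and 296 to 462 in eWAT HF, without overlap, and medians of 196 and 118 in liver LF and HF. Its difference widened from 0.45 ± 0.17 to 1.72 ± 0.18 (change 1.27 ± 0.24, adjusted p = 0.000582). miR-146b-5p went from a median of 730 to 1642 CPM in eWAT, without overlap of the groups, and had medians of 118 and 113 in liver LF and HF (change 1.05 ± 0.27, adjusted p = 0.00384). miR-142a-3p, found across blood cells, went from a median of 29.5 to 58.5 CPM in eWAT (change 0.75 ± 0.27, adjusted p = 0.0393).

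Of the 13 tested members of the leukocyte and macrophage list, 10 were higher in eWAT HF and 1 in liver HF, with a median of 1.72 on HF and 0.32 on LF. The change was called toward eWAT for 8 and toward liver for 0. The shares over all tested miRNAs were 41.3% higher in eWAT HF and 31.3% in liver HF. For the change they were 11.8% toward eWAT and 15.0% toward liver. The list's summed level ranged from 1884 to 2668 CPM in eWAT LF and from 2795 to 4856 in eWAT HF. In liver it was 1101 to 1534 on LF and 1081 to 1577 on HF. miR-155-5p, induced in activated macrophages, rose in eWAT (0.88 ± 0.19) while its change missed the threshold (0.65 ± 0.27, adjusted p = 0.0687). miR-150-5p, of mature lymphocytes, had a change of -0.59 ± 0.31 (adjusted p = 0.170). Whether more leukocytes or more of these RNAs per leukocyte accompanied the rise was not tested.

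A further set of changes toward eWAT lay in the imprinted Dlk1-Dio3 cluster. Of the 46 tested Dlk1-Dio3 miRNAs, 9 changed toward eWAT and 0 toward liver, with a median change of 1.11. Over all tested miRNAs 11.8% changed toward eWAT and 15.0% toward liver. Within eWAT 12 rose, against 12.8% of all tested miRNAs, and within liver 1 fell, against 1.51%. Their summed level had medians of 1038 and 1532 CPM in eWAT LF and HF. In liver the medians were 167 on LF and 92.1 on HF, with ranges that overlapped. The count of 9 was 15 with library totals, 17 in DESeq2 and 4 with the replicate block, with 0 toward liver in each. miR-382-5p had medians of 39.9 and 76.3 CPM in eWAT LF and HF and 7.61 and 3.40 in liver LF and HF. Its difference went from 2.08 ± 0.40 to 4.34 ± 0.44 (change 2.26 ± 0.56, adjusted p = 0.00284). miR-411-3p changed by 2.14 ± 0.57 (adjusted p = 0.00603). miR-487b-3p changed by 3.19 ± 0.88 (adjusted p = 0.0077), but had 3 counts in all liver HF libraries together, where the ratio of the tissues was 150 (51.1 to 727). miR-335-3p had 50.4 to 262 CPM in eWAT LF and 239 to 786 in eWAT HF, and changed by 1.49 ± 0.43 (adjusted p = 0.00956). Outside imprinted loci, miR-504-5p had 2.86 to 32.8 CPM in eWAT LF and 78.1 to 126 in eWAT HF, without overlap, while liver held at most 0.716 CPM. Its change was 3.66 ± 1.36 (adjusted p = 0.0435), and the call was lost when liver LF 1, 2 or 5, liver HF 1, 2, 3 or 5, eWAT LF 1 to 4 or eWAT HF 1, 2, 3 or 6 was left out.

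**Figure D2:**
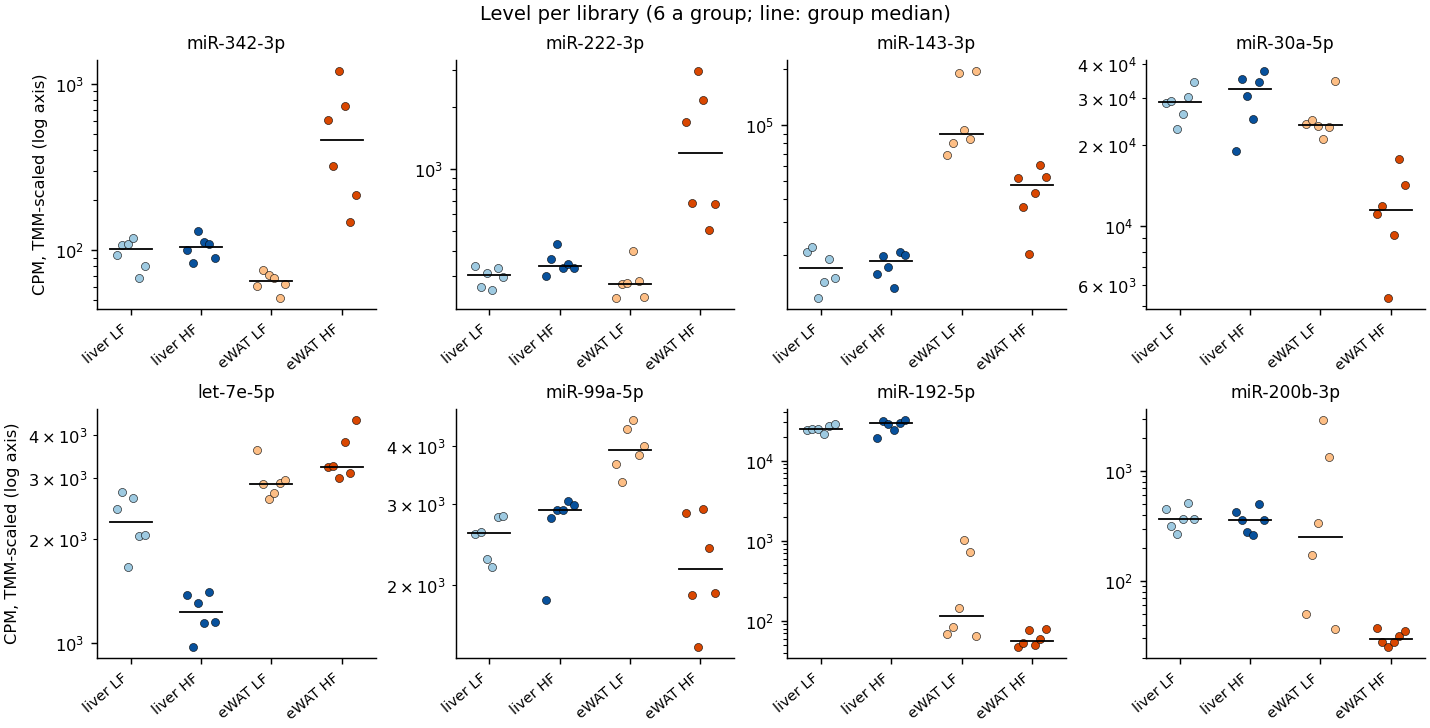
Levels of 8 miRNAs in every library of liver LF, liver HF, eWAT LF and eWAT HF (TMM-scaled CPM on log axes that differ between panels, 1 point a library, line at the median of 6). miR-342-3p and miR-222-3p were highest in the 6 eWAT HF libraries, let-7e-5p was lowest in the 6 liver HF libraries, and miR-143-3p and miR-30a-5p were lower in eWAT HF than in eWAT LF.

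Abundant eWAT miRNAs fell under high fat, which narrowed their lead over liver. miR-143-3p, found in vascular smooth muscle and in adipocytes, where it favours differentiation, had 68820 to 194600 CPM in eWAT LF (median 89360). In eWAT HF it had 20340 to 61240 (median 47720), below every eWAT LF library. Liver medians were 17000 on LF and 18480 on HF, with a highest liver HF library of 20830 that overlapped the lowest eWAT HF library. The difference shrank from 2.79 ± 0.26 to 1.31 ± 0.24 (change -1.48 ± 0.34, adjusted p = 0.00187). miR-103-3p, which lowers insulin sensitivity in mice, shrank from 1.25 ± 0.12 to 0.55 ± 0.12 (change -0.70 ± 0.17, adjusted p = 0.00269), with medians of 18840 and 13490 CPM in eWAT.

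The 14 tested miRNAs of the adipocyte list had a median difference of 1.82 on LF and 1.03 on HF. The change was called toward liver for 7, where 15.0% of all tested miRNAs were, and toward eWAT for 1, which was miR-335-3p. With library totals, and also without a low-count filter, 4 changed toward liver. Within eWAT 9 fell while 2 rose, against 16.8% and 12.8% of all tested miRNAs. miR-378a-3p, from an intron of Ppargc1b, was higher in liver on HF (-1.27 ± 0.15) and not called on LF (-0.33 ± 0.15, adjusted p = 0.0519). Its change was -0.94 ± 0.21 (adjusted p = 0.0018), and with library totals the HF difference was 0.12. The list's summed level was 103800 to 224400 CPM in eWAT LF and 36050 to 89360 in eWAT HF.

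The miR-30 and miR-29 families, which were higher in liver, moved further that way, with lower eWAT levels. miR-30a-5p, of a family that promotes human adipogenesis, had 21110 to 34570 CPM in eWAT LF (median 23720) and 5381 to 17710 in eWAT HF (median 11440), without overlap. Liver had medians of 28940 on LF and 32310 on HF. Its difference went from -0.18 ± 0.18 to -1.39 ± 0.18 (change -1.21 ± 0.25, adjusted p = 0.00103), and was 0.013 on HF with library totals. All 5 tested miR-30 miRNAs fell within eWAT, against 16.8% of all tested miRNAs. The change was called for 3 of them, against 15.0% of all tested miRNAs toward liver. These were miR-30a-5p, miR-30e-5p (-0.96 ± 0.21, adjusted p = 0.00119) and miR-30c-5p (-0.77 ± 0.25, adjusted p = 0.020). The call for miR-30c-5p was lost with library totals (adjusted p = 0.0519).

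The 3 miR-29 miRNAs, which target collagen transcripts and share the seed shown above, all changed toward liver, against 15.0% of all tested miRNAs. They did so with library totals too. On the TMM scale all 3 widened, whereas with library totals miR-29c-3p widened, miR-29b-3p turned and miR-29a-3p shrank, with no call on HF (adjusted p = 0.364). miR-29a-3p had medians of 4854 and 2921 CPM in eWAT LF and HF and 8468 and 8811 in liver, and every eWAT HF library lay below every eWAT LF library. Its change was -0.67 ± 0.16 (adjusted p = 0.00231), that of miR-29b-3p was -1.06 ± 0.22 (adjusted p = 0.00105) and that of miR-29c-3p was -1.15 ± 0.22 (adjusted p = 0.000582). miR-101a-3p, which targets the methyltransferase Ezh2, had medians of 3336 and 1778 CPM in eWAT LF and HF (change -0.99 ± 0.19, adjusted p = 0.000582). let-7g-5p, a let-7 member with TMM-scaled medians of 17180 CPM in eWAT LF and 13180 in eWAT HF, changed by -0.51 ± 0.14 (adjusted p = 0.00552).

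Liver moved in a smaller set. let-7e, miR-99b and miR-125a are made from neighbouring hairpins, and their 5p strands were called lower on HF in liver and not in eWAT. let-7e-5p had 1662 to 2731 CPM in liver LF (median 2244) and 977 to 1403 in liver HF (median 1232), without overlap. In eWAT it had medians of 2888 and 3237. Its lead in eWAT widened from 0.39 ± 0.12 to 1.50 ± 0.13 (change 1.11 ± 0.17, adjusted p = 8.53e-05), with a fall of 0.88 ± 0.12 in liver (adjusted p = 6.83e-06). miR-125a-5p had 4878 to 8791 CPM in liver LF and 3470 to 4685 in liver HF, also without overlap, and changed by 0.78 ± 0.17 (adjusted p = 0.00172). miR-99b-5p changed by 0.49 ± 0.14 (adjusted p = 0.0113), with liver medians of 1262 on LF and 883 on HF.

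The related miR-99a, let-7c and miR-125b, which come from other loci, were not called lower in liver HF. miR-99a-5p, which targets Mtor, fell in eWAT from 3341 to 4543 CPM on LF to 1472 to 2930 on HF, without overlap. In liver it had medians of 2592 and 2912, and its change was -0.92 ± 0.18 (adjusted p = 0.000582). Its HF difference was -0.29 ± 0.13 on the TMM scale, 1.10 with library totals and -0.18 without the third eWAT HF library, and its call (adjusted p = 0.0391) was lost when any of 15 single libraries of both tissues was left out. The changes of let-7c-5p (-0.13 ± 0.15, adjusted p = 0.614) and miR-125b-5p (-0.09 ± 0.14, adjusted p = 0.708) were not called.

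Rises in liver were also seen. miR-149-5p had 62.5 to 102 CPM in liver LF (median 66.6) and 103 to 420 in liver HF (median 265), without overlap by a narrow margin, and rose by 1.88 ± 0.23 there (adjusted p = 1.3e-06). In eWAT it had medians of 38.8 and 59.0, so that its lead in liver widened by -1.23 ± 0.32 (adjusted p = 0.00428). miR-107-3p rose in liver and fell in eWAT. In liver it had 421 to 522 CPM on LF and 610 to 904 on HF, without overlap, and in eWAT it had medians of 186 and 134. Its change was -1.10 ± 0.22 (adjusted p = 0.000674). miR-511-5p, from the macrophage mannose receptor gene Mrc1, had medians of 19.3 and 9.92 CPM in liver LF and HF, and its lead in liver on LF (-1.24 ± 0.21) was not called on HF (0.07 ± 0.21, change 1.31 ± 0.30, adjusted p = 0.00186).

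**Figure D3:**
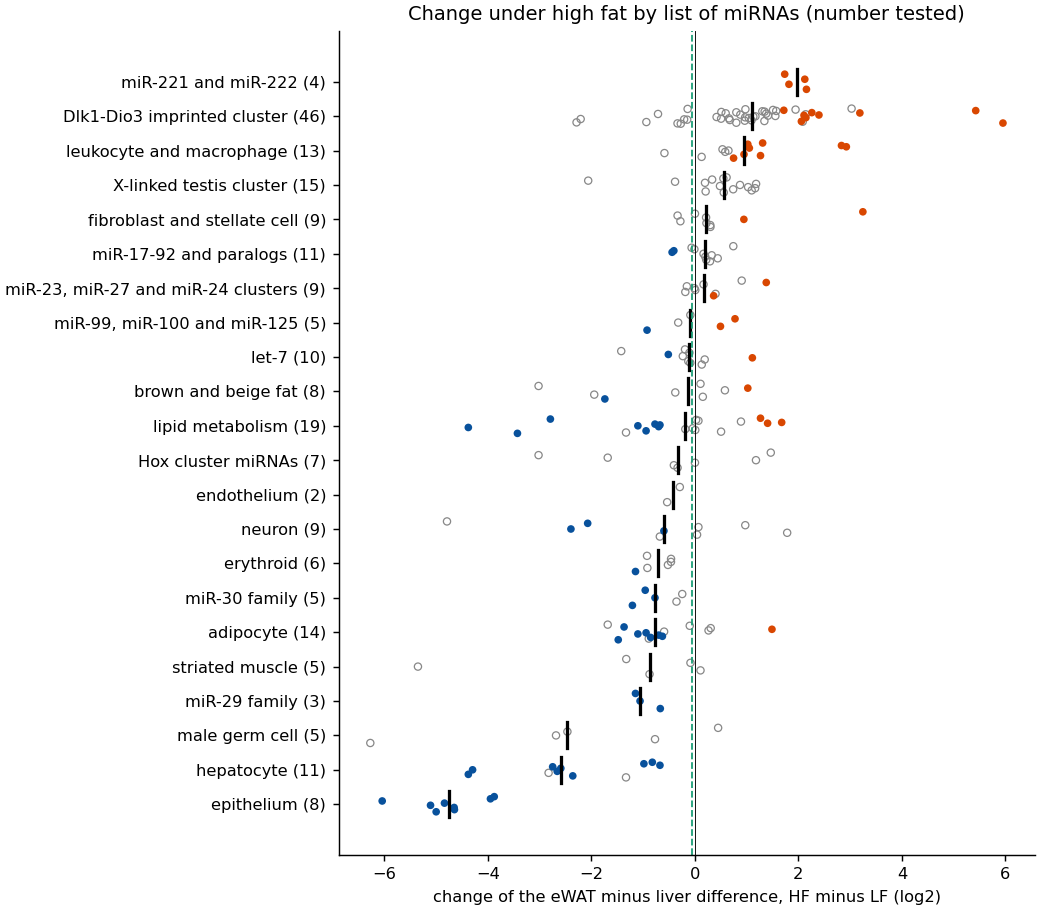
Change of the eWAT minus liver difference from low fat to high fat (log2) for the tested miRNAs of 22 lists, with the number tested in brackets. Filled points were called toward eWAT (orange) or toward liver (blue), open points were not called, black bars are list medians, and the dashed line is the median of all tested miRNAs (-0.06). Medians run from -4.74 for epithelium to 1.97 for miR-221 and miR-222.

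The hepatocyte list moved toward liver, with lower levels in eWAT. All 11 tested members were higher in liver HF, against 31.3% of all tested miRNAs, but a lead in liver follows from the choice of this list. Their median was -8.83 on HF and -6.16 on LF. The change was called toward liver for 9, against 15.0% of all tested miRNAs. Within eWAT 9 of the 11 fell, against 16.8% of all tested miRNAs, and within liver 0 rose or fell by call. miR-192-5p ranged from 64.0 to 1029 CPM in eWAT LF and from 47.1 to 78.0 in eWAT HF, and its change was -2.66 ± 0.65 (adjusted p = 0.0027). miR-215-5p, which shares its seed, had 7.02 to 35.4 CPM in eWAT LF and 0.748 to 6.60 in eWAT HF, without overlap (change -2.75 ± 0.63, adjusted p = 0.00186). miR-802-5p changed by -4.38 ± 1.01 (adjusted p = 0.00186), a fitted value against near-empty eWAT groups. Its eWAT libraries held 0 to 45 counts on LF (median 0.211 CPM) and 0 to 4 on HF (median 0.0359 CPM). Its liver medians were 127 CPM on LF and 265 on HF. miR-122-5p did not pass (-1.33 ± 0.93, adjusted p = 0.311).

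The epithelium list had the largest median change of the 22 lists, -4.74. miR-200b-3p, of the family that holds the epithelial state by targeting Zeb1 and Zeb2, had 36.4 to 2890 CPM in eWAT LF (median 253) and 25.1 to 37.5 in eWAT HF. Its liver medians were 365 on LF and 360 on HF. The eWAT groups overlapped, and the change was -4.65 ± 1.09 (adjusted p = 0.00203). miR-200a-3p changed by -5.0 ± 1.08 (adjusted p = 0.00125). miR-205-5p, of basal epithelium, changed by -6.04 ± 1.32 (adjusted p = 0.00144), or by -3.75 without the third eWAT LF library. All 8 members of the list changed toward liver and all 8 fell within eWAT, against 15.0% and 16.8% of all tested miRNAs.

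These values rest on a wide spread within eWAT LF. The summed epithelium list was 65.8 to 5674 CPM in eWAT LF and 46.6 to 94.5 in eWAT HF. The male germ cell list also spread widely, at 18.0 to 1702 CPM in eWAT LF and 16.3 to 205 in eWAT HF, and its summed level in liver was at most 4.69 CPM. The testis marker miR-465a-5p ranged from 0 to 8.42 CPM in eWAT LF (median 1.82) and from 0 to 8.99 in eWAT HF (median 0.124), and the X-linked testis list from 1.21 to 561 and from 1.12 to 697. Libraries eWAT LF 4, eWAT LF 5 and eWAT HFLF 4 were doubted for their high epithelial levels. Without these 3 the changes of miR-200a-3p, miR-200b-3p and miR-200c-3p were -2.27, -2.18 and -2.19, still called. Those of miR-192-5p, miR-194-5p and miR-802-5p were -0.68, -1.04 and -2.79. The calls for miR-141-3p, miR-200b-5p, miR-375-3p, miR-129-5p, miR-194-2-3p and miR-122-3p ended. Without eWAT LF 4 alone, those for miR-141-3p, miR-200b-5p, miR-375-3p, miR-129-5p and miR-194-2-3p also ended, as did those for miR-141-3p and miR-129-5p without liver HF 2. With limma voom and sample weights, 3 of the 8 epithelium and 6 of the 11 hepatocyte miRNAs were called, as many as with the replicate block, and miR-205-5p, miR-200c-3p and miR-802-5p were not. The part that other tissue in the fat pads had in these values was not tested.

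Other lists moved less. The brown and beige fat list (8 tested) had 5 higher in eWAT HF and 3 in liver HF, against 41.3% and 31.3% of all tested miRNAs. It had 1 change each way, near the shares over all miRNAs (11.8% and 15.0%). The change toward liver was not called with library totals, without a low-count filter, on the 24 HF and LF libraries or without the 3 doubted eWAT libraries. The lone change toward eWAT was miR-455-3p, which favours brown adipogenesis in mice. It had 57.0 to 118 CPM in eWAT LF and 80.7 to 261 in eWAT HF against medians of 1771 and 1830 in liver (change 1.02 ± 0.29, adjusted p = 0.00969). Of 9 tested miRNAs of fibroblasts and stellate cells, 7 were higher in eWAT HF, against 41.3% of all tested miRNAs. In this list 2 changed toward eWAT, against 11.8% of all (1 with voom, the replicate block, no filter or the doubted libraries left out). Among these was miR-214-3p, a miRNA of activated fibroblasts (0.95 ± 0.27, adjusted p = 0.00913). The erythroid list had 5 of 6 higher in liver HF and 0 higher in eWAT HF, against 31.3% and 41.3% of all tested miRNAs. It had 1 change toward liver (0 to 2 over the alternatives), against 15.0% of all. With library totals the HF differences of miR-451a, miR-144-3p and miR-144-5p turned to 0.37, 0.14 and 0.17. The lipid metabolism list (19 tested) had 3 changes toward eWAT and 8 toward liver, against 11.8% and 15.0% of all tested miRNAs.

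The miR-17-92 list (11 tested) had 0 changes toward eWAT and 2 toward liver, a share near that over all miRNAs, but 1 and 0 with library totals and 0 and 0 without a low-count filter. The neuron list (9 tested) had 0 and 3, against 11.8% and 15.0% of all tested miRNAs, with 0 to 3 toward liver over the alternatives. The miR-23, miR-27 and miR-24 list (9 tested) had 2 changes toward eWAT, with 1 to 4 over the alternatives, and 0 toward liver, against the same shares. In edgeR's test 0 changes were called among the 2 endothelium, 5 striated muscle, 5 male germ cell, 15 X-linked testis and 7 Hox cluster miRNAs tested. At an unadjusted p below 0.05 there were 1, 1, 1, 0 and 3, all toward liver. DESeq2 called 1, 1, 0, 0 and 2, also toward liver, and voom called 0 in each. The Hox cluster list nevertheless held very large differences on both diets, with medians of 8.08 on HF and 7.56 on LF. miR-10b-5p had a change of 0.00 ± 0.42, with a difference of 8.68 on each diet. miR-1948-3p, with -7.77 on HF and -7.81 on LF, changed by 0.03 ± 0.42. miR-1a-3p, a striated muscle miRNA, fell within eWAT from a median of 3093 to 659 CPM, while its change was not called (-0.88 ± 0.75, adjusted p = 0.435).

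Counts were also summed over the mature miRNAs that share a seed, giving 417 tested families. On high fat 172 (41.2%) were higher in eWAT and 120 (28.8%) in liver, and the change was called for 53 (12.7%) toward eWAT and 70 (16.8%) toward liver. In 14 families single members were called in opposite directions on HF, and the sum was still called for 12 of them. The let-7 family, seed GAGGUAG, had a sum that differed by -0.63 ± 0.07 on HF and was not called with library totals (-0.10, adjusted p = 0.0725). Within it let-7e-5p (1.50) and let-7i-5p (0.52) were higher in eWAT and let-7g-5p (-1.62), let-7f-5p (-1.08), let-7a-5p (-0.85), let-7d-5p (-0.65) and miR-98-5p (-0.37) were higher in liver. The change of the sum was -0.16 ± 0.10 (adjusted p = 0.263), with let-7e-5p and let-7g-5p called in opposite directions.

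In the miR-99/100 family, seed ACCCGUA, the sum was higher in eWAT on both diets, by 0.63 ± 0.08 on HF and 1.08 ± 0.08 on LF (change -0.45 ± 0.12, adjusted p = 0.00375). Its members miR-99a-5p and miR-99b-5p changed in opposite directions, as given above. In the miR-103/107 family, seed GCAGCAU, miR-103-3p (0.55) outweighed miR-107-3p (-2.47), and the sum was 0.61 ± 0.12 on HF and 1.38 ± 0.12 on LF (change -0.78 ± 0.17, adjusted p = 0.000872). In the miR-146 family, seed GAGAACU, miR-146a-5p (-0.70) and miR-146b-5p (3.71) differed in direction, and the sum widened from 0.68 ± 0.16 to 1.75 ± 0.17 (change 1.07 ± 0.23, adjusted p = 0.000872). The miR-27 sum, seed UCACAGU, joined miR-27a-3p (1.04) with miR-27b-3p (-1.02). It was -0.53 ± 0.12 on the TMM scale, 0.034 with library totals and -0.33 without the fourth eWAT LF library. The miR-17/20/93/106b sum, seed AAAGUGC, changed by -0.39 ± 0.11 (adjusted p = 0.00816).

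The ratio of the 2 arms of a hairpin does not depend on the scaling between libraries. It was tested for 109 hairpins with limma on the log2 ratio of 5p to 3p counts. On high fat the ratio leaned further to 5p in eWAT for 25 hairpins (22.9%) and in liver for 24 (22.0%), together 45.0%. On low fat these were 19 (17.4%) and 11 (10.1%). miR-322, an X-linked miRNA of growing tissues, had a 5p share of 7.76% ± 0.585 in liver HF and 19.8% ± 1.58 in eWAT HF. The groups did not overlap (difference 1.55 ± 0.16, adjusted p = 3.99e-09) and the LF shares were 7.20% and 22.8%. miR-671 had 24.6% ± 5.13 and 44.2% ± 7.75 (1.30 ± 0.25, adjusted p = 9.95e-05), and miR-29c had 3.23% ± 1.01 and 9.38% ± 1.74 (1.67 ± 0.27, adjusted p = 1.05e-05). miR-340 had 89.2% ± 1.12 and 78.5% ± 2.52 (-1.18 ± 0.14, adjusted p = 2.97e-08).

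The arm ratio difference changed with diet for 7 hairpins (6.42%) toward eWAT and 7 (6.42%) toward liver. miR-335 had a 5p share of 84.1% ± 3.24 in eWAT LF and 71.0% ± 2.63 in eWAT HF, without overlap, whereas liver had 79.9% ± 4.69 and 81.3% ± 3.04. Its change was -1.26 ± 0.26 (adjusted p = 0.00173). miR-362 had 52.8% ± 8.41 in eWAT LF and 71.2% ± 4.84 in eWAT HF, again without overlap, and 65.3% ± 6.01 and 60.4% ± 4.35 in liver (change 1.47 ± 0.30, adjusted p = 0.00173). For 7 of these 14 hairpins, miR-23b, miR-25, miR-27a, miR-27b, miR-30d, miR-93 and miR-148b, the minor arm held under 5% in every library of these 4 groups. The count of hairpins toward liver fell to between 2 and 4 when liver LF 1, 3 or 6, liver HF 6, eWAT LF 3, 4 or 6 or eWAT HF 3 or 6 was left out, and that toward eWAT fell to 3 without eWAT HF 3.

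**Figure D4:**
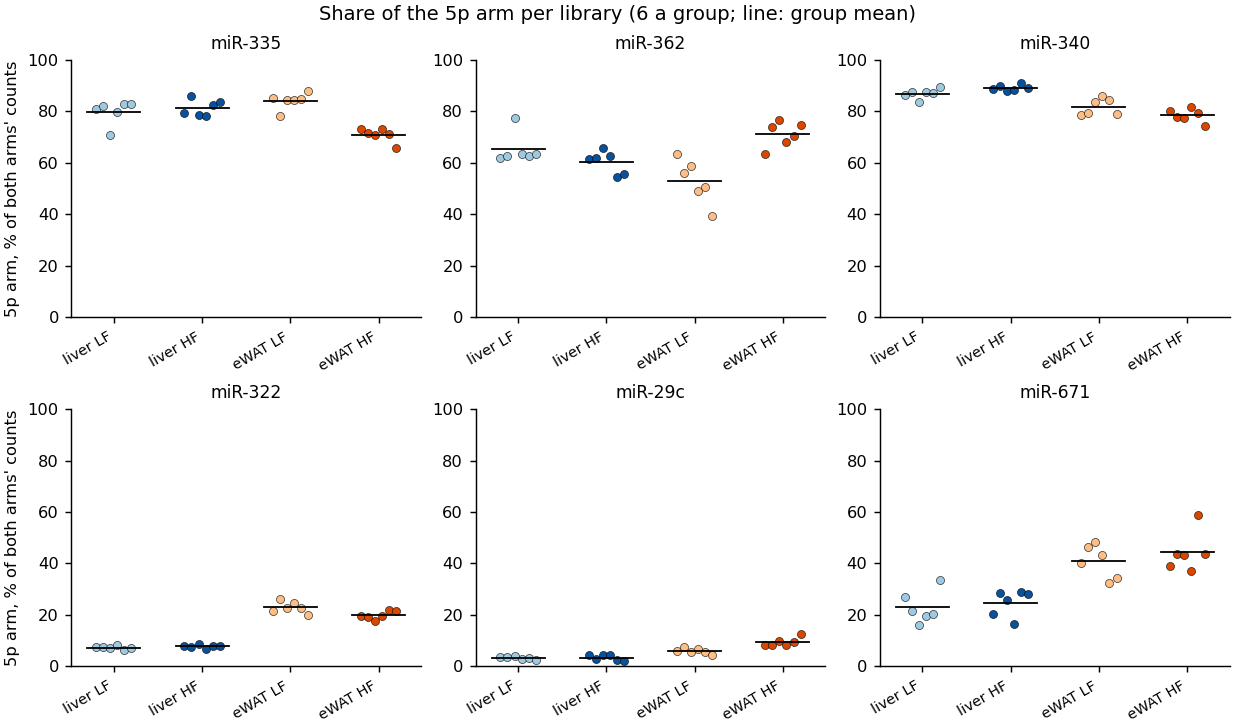
Share of the 5p arm among the counts of both arms (percent) for 6 hairpins, in every library of liver LF, liver HF, eWAT LF and eWAT HF, with the line at the mean of 6. miR-335 fell from 84.1% to 71.0% and miR-362 rose from 52.8% to 71.2% between eWAT LF and eWAT HF, while miR-322, miR-29c and miR-671 had a larger 5p share in eWAT than in liver on both diets.

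After the return to low fat the tissue difference was tested against that on high fat, with the same HF libraries as above. It changed for 37 miRNAs (6.22%) toward eWAT and 20 (3.36%) toward liver, together 9.58%. These counts were 35 and 31 with RLE size factors, 26 and 29 without miR-122-5p in the table, 39 and 38 in DESeq2 and 11 and 28 with library totals. Without eWAT HF 3, eWAT HF 4 or liver HF 2 the count toward eWAT was 17, 24 and 24. For the miRNAs of the text, the 3 differences are given side by side, since the comparisons share the HF libraries. miR-342-3p had -0.57 on LF, 2.36 on HF and 0.26 on HFLF, with a return of -2.10 ± 0.43 (adjusted p = 0.00287). miR-222-3p had -0.08, 2.05 and 0.43 (return -1.62 ± 0.39, adjusted p = 0.00847), and miR-221-3p had -0.96, 1.20 and -0.47 (return -1.66 ± 0.37, adjusted p = 0.00561). let-7e-5p had 0.39, 1.50 and 0.67 (return -0.82 ± 0.17, adjusted p = 0.00343).

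Among those that had moved toward liver, miR-30a-5p had -0.18, -1.39 and -0.34 (return 1.05 ± 0.25, adjusted p = 0.00783). miR-29a-3p had -0.86, -1.52 and -0.85 (return 0.68 ± 0.16, adjusted p = 0.00734), and miR-107-3p had -1.37, -2.47 and -1.50 (return 0.97 ± 0.22, adjusted p = 0.00619). For some miRNAs the return was not called. miR-223-3p had 0.45, 1.72 and 1.45 (return -0.27 ± 0.24, adjusted p = 0.534). miR-143-3p had 2.79, 1.31 and 2.10 (return 0.79 ± 0.34, adjusted p = 0.159), and miR-146b-5p had 2.66, 3.71 and 3.09 (return -0.62 ± 0.27, adjusted p = 0.156).

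**Figure D5:**
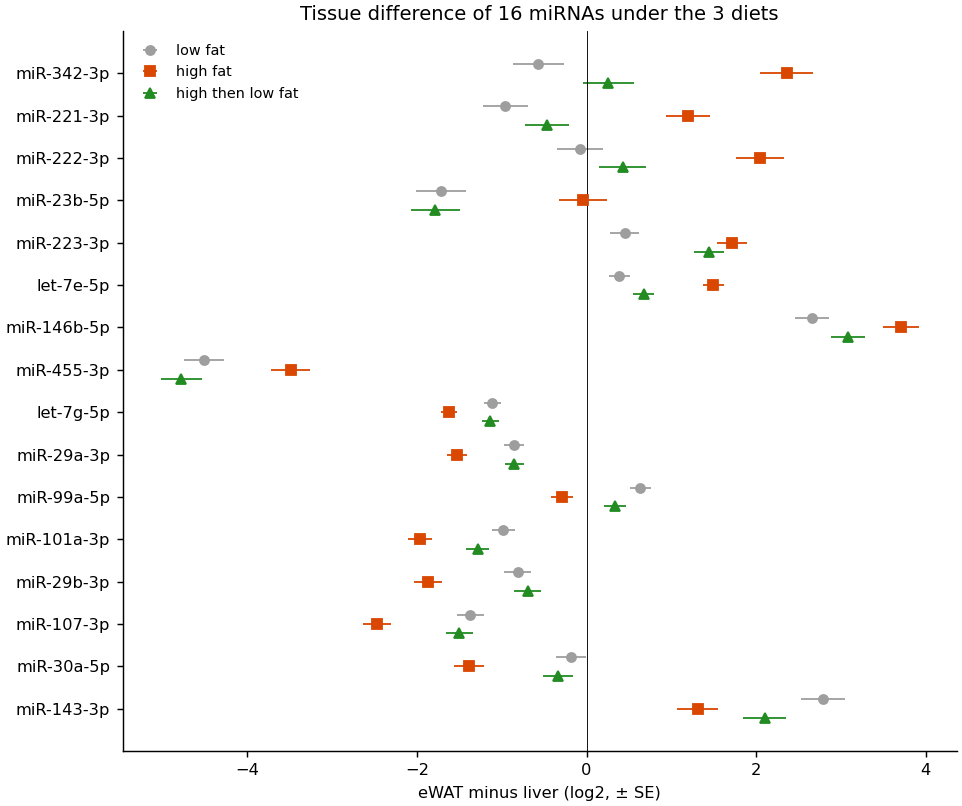
The eWAT minus liver difference (log2, ± SE from the joint fit) of 16 miRNAs on low fat, on high fat and after high then low fat. For miR-342-3p the values were -0.57, 2.36 and 0.26, and for miR-223-3p the value after the return (1.45) lay nearer to that on high fat (1.72) than to that on low fat (0.45).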

How the data were processed

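Small RNA libraries of liver and eWAT from mice of 3 diets were used, 36 in all, with 6 for each tissue and diet. The authors deposited tables of raw counts per mature miRNA; the submitters' processing notes name cutadapt, Bowtie and build GRCm38.p6, with no versions. Whether multiply mapped reads were shared or dropped is not given in the sources used here. The column codes C, H and R were read as LF, HF and HFLF, and the group of each library rests on that reading. The labels' protocols print "HLD" for 1 diet, read here as the high-fat diet. Nothing in the labels states that replicates came from separate animals. The p-values therefore cover only the variation among these libraries, which may be technical. The liver columns appear in both tissue tables with identical values and were used once. The sperm table holds 18 columns of other samples, which were not used, and sperm was not analysed here.

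miRNAs were joined by name, filtered with filterByExpr over the 6 groups, scaled by TMM and tested in 1 edgeR 4.0.16 quasi-likelihood fit of all 36 libraries (R 4.3.3), with Benjamini-Hochberg adjustment over all 595 tested. A call is an adjusted p below 0.05. Differences are log2, eWAT minus liver, ± SE, where the SE is the size of the difference divided by the square root of its F. A change is the HF difference minus the LF difference, so positive values lie toward eWAT. A change counted as appeared when the tissues were called apart on HF alone, as widened when called on both diets in 1 direction and larger on HF, as shrunken when called on LF and smaller or not called on HF, and as turned when called in opposite directions. Counting intervals are exact, at 95%, and cover counting error only.

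Arm ratios, log2 of (5p + 1)/(3p + 1), were tested with limma 3.58.1 (trended variance) where each arm averaged at least 10 counts and both arms held at least 20 in every library. Seed families used the 1675 of 1966 names with a reference sequence, so miR-122-5p and others without one are in no family. The effective number was tested by exact permutation over 924 splits, adjusted over 6 tests.

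The miRNAs named were the 5 most abundant in each tissue, the 10 largest differences each way with at least 100 CPM, up to 10 changes per class with at least 10 CPM, up to 3 per list, up to 10 hairpins and up to 8 families. Others named for contrast were chosen after their values were seen. The members, lists and tests were chosen with earlier results of these data known. Alternatives were other scalings, DESeq2 1.42.0 with its own size factors, limma voom with sample weights, no low-count filter, fewer libraries, a replicate block and leaving out each HF or LF library. Same-numbered libraries of the tissues were checked for pairing: over 18 pairs, correlations of deviations from group means ran from -0.067 to 0.131 (median 0.011, 1 over 0.1), so the numbers were not taken to pair libraries. On simulated counts 200 miRNAs were changed before the low-count filter, which left 578 to test. Among those tested, the change test called 36.1% of those changed by a log2 of 1, 66.3% of those changed by 2 and 1.3% of the unchanged.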

Additional observations from a re-analysis of the deposited data

Results flagged for a closer look

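Single libraries far from the other 5 of their group were found in 16 of 212 groups examined, where chance gives about 1 in 20. The first liver HF library had 155 CPM of miR-146b-5p, 1860 of miR-99a-5p, 1537 of miR-7a-5p, 28130 of let-7g-5p, 5442 of miR-29a-3p and 14570 of miR-30c-5p. The first eWAT HF library had 1.58 CPM of miR-141-3p, 29.3 of miR-200c-3p, 5.32 of miR-878-3p and 0.216 of miR-493-5p. The third eWAT HF library had 36120 CPM of miR-26a-5p, 761 of miR-126a-5p and 199 of miR-451a. The fifth eWAT HF library had 5.76 CPM of miR-511-5p. The fourth liver HF library had 0.127 CPM of miR-708-5p and the fifth had 0.366 of miR-34b-5p.

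The diet effect differed between the tissues, by the interaction term in edgeR, for the named miRNAs that follow. Values are the log2 diet effect in eWAT minus that in liver. Toward eWAT, miRNAs of leukocytes and the miR-221/222 pair had 2.93 (miR-342-3p), 2.83 (miR-342-5p), 1.27 (miR-223-3p), 1.05 (miR-146b-5p), 1.31 (miR-511-5p), 2.16 (miR-221-3p), 1.82 (miR-221-5p), 2.12 (miR-222-3p) and 1.74 (miR-222-5p). For miR-511-5p the diet effect was called in liver (-0.95, adjusted p = 0.00783 in edgeR) and not in eWAT (0.36, adjusted p = 0.213). Imprinted miRNAs had 3.19 (miR-487b-3p), 2.26 (miR-382-5p), 2.14 (miR-411-3p), 5.95 (miR-493-5p), 1.49 (miR-335-3p) and 2.87 (miR-298-5p). The diet effect of miR-493-5p was called in liver (-5.46, adjusted p = 0.0281 in edgeR) and not in eWAT (0.50). miR-493-5p had 0 counts in all liver HF libraries. Against a floor of 3 counts in each of these libraries, eWAT HF was at least 5.43-fold higher.

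Others toward eWAT were miR-708-5p (3.24), miR-132-3p (1.40), miR-504-5p (3.66), miR-23b-5p (1.68), miR-21a-3p (1.62), miR-674-5p (1.36), miR-674-3p (1.11), miR-15b-3p (1.12), miR-532-5p (0.80), miR-455-3p (1.02), miR-214-3p (0.95), let-7e-5p (1.11), miR-27a-5p (1.38), miR-23a-3p (0.36), miR-125a-5p (0.78) and miR-99b-5p (0.49). The change of miR-708-5p is a fitted value against near-empty liver groups, with 13 counts in all liver LF libraries and 1 in all liver HF libraries, while its eWAT medians were 224 CPM on LF and 207 on HF. It was 4.90 without the fourth liver HF library, and its call was lost without liver LF 1 or 5 or liver HF 1, 2, 3, 5 or 6.

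Toward liver, epithelial miRNAs had -6.04 (miR-205-5p), -5.11 (miR-141-3p), -5.0 (miR-200a-3p), -4.84 (miR-429-3p), -4.65 (miR-200b-3p and miR-200c-3p) and -3.88 (miR-200b-5p). miRNAs of the hepatocyte list and partner strands of them had -4.38 (miR-802-5p), -2.36 (miR-122-3p), -2.66 (miR-192-5p), -4.29 (miR-192-3p), -2.59 (miR-194-5p), -1.90 (miR-194-2-3p) and -2.75 (miR-215-5p). On LF the tissues were not called apart for miR-215-5p, with medians of 26.5 CPM in liver and 17.6 in eWAT. miR-192-3p had 0 counts in all eWAT HF libraries, where liver HF was at least 101-fold higher, and miR-292b-5p (-2.89) likewise at least 57.3-fold.

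Abundant miRNAs toward liver were miR-143-3p (-1.48), miR-99a-5p (-0.92), miR-101a-3p (-0.99), miR-107-3p (-1.10), miR-378a-3p (-0.94), let-7g-5p (-0.51), miR-29a-3p (-0.67), miR-29b-3p (-1.06), miR-29c-3p (-1.15), miR-30a-5p (-1.21), miR-30e-5p (-0.96), miR-30c-5p (-0.77), miR-106b-5p (-0.44), miR-93-5p (-0.41) and miR-7a-5p (-0.60). The rest were miR-375-3p (-4.67), miR-182-5p (-2.39), miR-31-5p (-1.45), miR-582-3p (-2.86), miR-137-3p (-3.12), miR-129-5p (-2.07), miR-669p-5p (-1.40), miR-669a-5p (-1.38), miR-193a-3p (-1.74), miR-144-3p (-1.16) and miR-7b-5p (-2.39). Without 1 library, miR-137-3p moved to -1.80 (eWAT LF 3), miR-194-2-3p to -1.22 (eWAT LF 4), miR-292b-5p to -0.92 (eWAT LF 2) and miR-31-5p to -0.70 (eWAT LF 3), all of which ended the call. Leaving out single libraries also ended calls on both sides: any of 17 for miR-122-3p, 16 for miR-193a-3p, 15 for miR-504-5p, 12 for miR-144-3p, 11 each for miR-31-5p and miR-93-5p, 8 for miR-23a-3p, 7 each for miR-292b-5p and miR-669a-5p, 5 for miR-298-5p, 3 for miR-669p-5p, 2 each for miR-7b-5p, miR-129-5p and miR-141-3p, and 1 each for miR-7a-5p, miR-27a-5p, miR-200b-5p and miR-375-3p.

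The arm ratio, log2 of 5p to 3p, also responded to diet differently in the tissues by limma's interaction term. The differences were 1.47 for miR-362, 1.41 for miR-27a, 1.29 for miR-25, 1.26 for miR-30d, 0.99 for miR-23b, 0.73 for miR-27b and 0.58 for miR-423. They were -1.65 for miR-148b, -1.29 for miR-32, -1.26 for miR-335, -1.23 for miR-93, -0.79 for miR-1843a, -0.62 for miR-340 and -0.56 for miR-142a. The minor arm held under 5% in every liver and eWAT library on LF and HF for miR-23b, miR-25, miR-27a, miR-27b, miR-30d, miR-93 and miR-148b.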

How the results depend on the processing

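Values here are log2 differences, HF eWAT minus liver unless called a change. With RLE size factors and DESeq2 alike, miR-26a-5p turned to 0.19, miR-23b-5p to 0.22, miR-126a-5p to 0.15 and let-7c-5p to 0.020, and 31 and 38 miRNAs moved toward liver on return. With library totals 417 miRNAs were higher in eWAT and 70 in liver, 6 turned, 11 moved toward eWAT on return, and 75 families were higher in liver, with 43 changing toward liver. The HF difference then turned for let-7f-5p (0.31), let-7a-5p (0.54), let-7c-5p (1.18), miR-21a-5p (0.52), miR-21a-3p (1.02), miR-26a-5p (1.37), miR-129-5p (0.60), miR-23b-5p (1.42), miR-99a-5p (1.10), miR-378a-3p (0.12), miR-126a-5p (1.31), miR-144-3p (0.14), miR-144-5p (0.17), miR-451a (0.37), miR-30a-5p (0.013), miR-30c-5p (0.073), miR-106b-5p (0.87), miR-93-5p (0.84) and family UCACAGU (0.034), and the change for miR-26a-5p (0.090) and let-7c-5p (0.032).

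Without miR-122-5p in the table, miR-23b-5p was 0.058 and miR-26a-5p 0.029, and the effective number in liver was higher on HF than on LF by 0.954 when the entropy left out miR-122-5p. Voom called 57 miRNA and 42 family changes toward liver, with miR-375-3p at -1.58 and miR-465c-5p at -0.10 and changes of -0.24 (miR-470-5p) and -0.76 (miR-465c-5p). Without a low-count filter 59 changed toward liver, 43 widened, 6 turned and 11 moved toward eWAT on return, with miR-26a-5p at 0.14, miR-126a-5p at 0.10, miR-23b-5p at 0.17 and a miR-10b-5p change of -0.039. On the 12 HF libraries alone these 3 were 0.085, 0.039 and 0.10, and on the 24 HF and LF libraries the miR-10b-5p change was -0.014. The test against a 2-fold difference called 163 and 104. Without the doubted eWAT libraries the changes of miR-34c-5p and miR-34c-3p were 0.31 and 0.13.

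Deviations of same-numbered libraries showed little correlation, and 2 of the 18 pairs correlated best with their own number. Liver and eWAT of a mouse need not deviate alike, so this check cannot tell whether the numbers pair the libraries. With the replicate block 54 miRNAs, 45 families and 2 hairpins changed toward liver, 38 differences widened, 6 turned, and 23 and 11 miRNAs moved toward eWAT and liver on return, with miR-375-3p at -1.43 and a miR-465c-5p change of -0.36.

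Leaving out 1 HF or LF library at a time, miRNA counts on HF ran from 227 to 250 (eWAT) and 179 to 191 (liver), and changes from 60 to 80 (toward eWAT) and 72 to 95 (toward liver). The counts on return toward eWAT ran from 17 to 41, and hairpin changes from 3 to 9 toward eWAT and from 2 to 9 toward liver. The HF minus LF effective number in eWAT ran from 2.38 to 4.09, and the share of the top miRNA, not called with all libraries, from -5.10 to -2.58 percentage points and was called without eWAT LF 1, 2 or 5. Directions turned for values that were not called. On HF these were miR-511-5p (-0.054 to 0.22), miR-23b-5p (-0.34 to 0.16), miR-26a-5p (-0.11 to 0.060), miR-375-3p (-1.61 to 0.53) and miR-126a-5p (-0.15 to 0.056). For the change they were miR-10b-5p (-0.40 to 0.22), miR-1948-3p (-0.19 to 0.39), miR-1948-5p (-0.075 to 0.29), miR-26a-5p (-0.17 to 0.0021), miR-470-5p (-0.76 to 1.74) and miR-465c-5p (-1.11 to 1.56). The causes of these differences were not tested. Depth limits the least abundant: 32 of the 159 changed miRNAs had a mean under 10 CPM in all 4 groups.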

Other observations

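Even counts were more frequent for miRNAs with more than 1 locus. Among miRNAs averaging at least 100 counts, the 219 with 1 locus in the reference had even counts in 51.4% of their values over 36 libraries, and 2 of them had even counts in over 90%. The 26 with 2 loci had 63.1% even values, and 5 of them were even in over 90%. How reads of repeated loci were counted is not given in the sources used here.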
